A study of Mus musculus with 9 samples.

Results

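Syn3 and Timp3 are a pair of mouse genes that share a stretch of chromosome 10 on opposite strands, and they are 2 of the 55228 features counted in these libraries. They were chosen by name, after the Syn3 feature had been selected on its lower count in injured than in sham-operated uterus, and Timp3 was added because it lies inside Syn3. The injury against sham values of both are therefore given as a description, without a test. The data are RNA-seq counts from uteri of 8-week-old wild-type female C57BL mice on day 7, with 1 library per mouse and 3 mice in each of 3 groups. Sham mice were sham-operated. Mice of the other groups were injured mechanically from inside the uterus, by 10 strokes of a rotating needle of 27 gauge. The groups then differed in the 50 μL instilled, which was PBS alone for injury mice and wild-type CRCs in suspension for CRC mice. CRCs are conditionally reprogrammed cells, here endometrial epithelial cells of the mouse that were expanded in culture with irradiated feeder cells.

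TIMP3 is a secreted inhibitor of metalloproteinases that, unlike its relatives, binds tightly to the extracellular matrix. It blocks matrix metalloproteinases (MMPs), the sheddase ADAM17 and the aggrecan-cleaving ADAMTS enzymes, and in the uterus it is known from stromal cells and from the remodelling of the endometrium. Synapsin III, the product of Syn3, is a phosphoprotein of synaptic vesicles known mainly from neurons. The TIMP and synapsin families are nested in each other, with Timp1 lying within Syn1, Timp3 within Syn3 and Timp4 within Syn2, each on the strand opposite to its host.

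In GENCODE M21 on GRCm38, Syn3 (ENSMUSG00000059602.14) lies on the minus strand of chromosome 10 from 86055125 to 86498896. Timp3 (ENSMUSG00000020044.13) lies on the plus strand from 86300372 to 86349506, wholly between the ends of Syn3. The annotation gives 6 transcripts of Syn3 and 4 of Timp3. Most of Timp3 faces Syn3 introns, but 1733 bases, from 86347774 to 86349506, are exonic in both genes and form a single block. On the Timp3 side the block is the end of the 3′ untranslated region in the last exon of Timp3-201, the transcript with 5 exons, and makes up 36.7% of that transcript. On the Syn3 side it belongs to 1 transcript, Syn3-203, which is annotated as a retained intron. The block holds 0 coding bases of either gene, and it covers 14.1% of all exonic bases of Syn3 and 21.3% of those of Timp3.

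**Figure D1:**
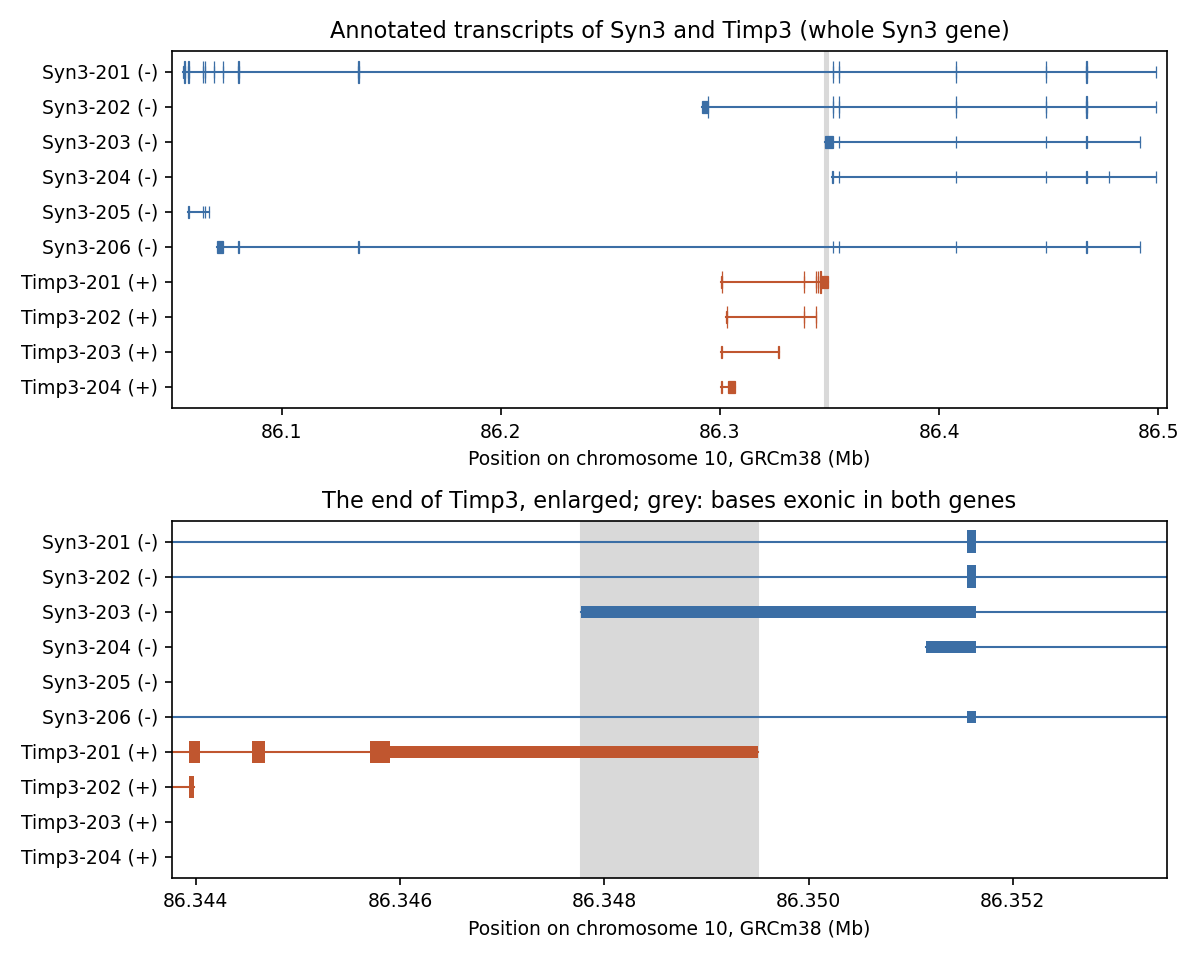
Annotated transcripts of Syn3 (minus strand, blue) and Timp3 (plus strand, orange) along chromosome 10 of GRCm38, with position in Mb on the x axis. Thin boxes are untranslated or non-coding exons, thick boxes are coding sequence and lines are introns. The upper panel spans all of Syn3, and the lower panel enlarges the grey block of 1733 bases in which the last exon of Timp3-201 and an exon of Syn3-203 face each other.

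Libraries were shallow on features. Counts on features came to 325384, 317754 and 327883 in sham replicates 1 to 3, to 290684, 280886 and 282937 in injury and to 288619, 289964 and 290833 in CRC. These were 0.776% to 0.898% of the records of each library. Sham replicates 2 and 3 stood apart in records that fell on more than 1 feature, with 28622 and 24851, where the other 7 libraries had between 1751 and 6470. They also held the largest shares of reads that did not align, 3.13% and 2.52%, against 1.36% to 1.81% elsewhere. Calls on Timp3 and the proteinases against sham are therefore also given with sham replicate 1 alone where they change, a choice made after the data were seen.

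Syn3 was among the most abundant features of the libraries. It ranked at place 8 of all features, with 28565 counts over the 9 libraries, or 1.06% of all counts on features. Timp3 held 277 counts in the same libraries. Per kb of annotated exon the mean count per library was 258 for Syn3 and 3.78 for Timp3. The files give a count per feature and no position within it, and how the counting treated strand is not given in the sources used here. Whether the Syn3 counts lie in the block shared with Timp3, and from which strand they were transcribed, was not tested. A count is therefore named by the feature to which the authors assigned it. Many of the features with high counts face another gene. The share among all features was not computed, so whether these shares are unusual was not tested. Of the 487 features that averaged at least 100 counts and had 1 match in the annotation, 412 (84.6%) overlap an exon on the other strand. In 255 (61.9%) of those 412 the opposite genes held under 10% of the feature's own count, as Timp3 did opposite Syn3.

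Syn3 had 3981, 3523 and 3449 counts in sham replicates 1 to 3. It had 2473, 2588 and 2387 counts in injury and 2980, 3814 and 3370 in CRC. The sham libraries were thus the highest in scaled counts, the injury libraries formed a tight low group, and the CRC libraries spread from the injury level towards sham. In counts per 1000000 after TMM scaling (CPM), Syn3 measured 12762 ± 377 in sham (SD, n = 3), 8686 ± 373 in injury and 10358 ± 1324 in CRC. Injury and sham, the contrast that chose it, differed by a log2 fold change of -0.56 (standard error 0.12), with no overlap between the libraries. A lack of overlap in that contrast held for 15.7% of all tested features, and 0.430% of them passed the threshold used below.

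The comparisons of CRC with the other groups ask where the transplanted uteri lay between sham and injured ones. Each feature was tested with edgeR's quasi-likelihood test and called at a Benjamini-Hochberg adjusted p under 0.05 over the 3722 features that passed a filter on low counts, among them both Syn3 and Timp3. Against sham, Syn3 had a log2 fold change of -0.30 in CRC (standard error 0.12, edgeR adjusted p = 0.0691), short of the threshold. All 3 CRC libraries were below all 3 sham libraries in CPM, and groups that did not overlap were found in this comparison for 35.5% of all tested features. Against injury, Syn3 had a log2 fold change of 0.25 in CRC (standard error 0.12, edgeR adjusted p = 0.176). Here the groups overlapped, since CRC replicate 1 at 9076 CPM was below injury replicate 2 at 9100 CPM. The order of the means was thus sham, CRC, injury, and neither neighbouring pair with CRC differed past the threshold. Both comparisons share the CRC libraries, and each shares a group with the contrast that chose the gene. A place of CRC between the other groups was thus favoured by that choice.

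The place of CRC in this order depended on the scaling and on 1 library. Per 1000000 records of a library, counted or not, Syn3 measured 97.1 ± 3.91 in sham (SD, n = 3), 70.5 ± 0.803 in injury and 96.5 ± 11.0 in CRC. With library sizes taken from all records the log2 fold change of CRC was -0.01 against sham (edgeR adjusted p = 0.966) and 0.45 against injury (edgeR adjusted p = 0.00791), the latter past the threshold. That scaling moved the median of all tested features from 0.03 to 0.32 against sham and from 0.01 to 0.21 against injury on the log2 scale. Without CRC replicate 2, the highest of its group, the fold change against sham was -0.39 and passed the threshold (edgeR adjusted p = 0.0464). The choice of Syn3 favoured differences in both of these directions, as each comparison used a group of the contrast that chose it.

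Timp3 had 35, 8 and 15 counts in sham replicates 1 to 3. It had 22, 24 and 27 counts in injury and 62, 34 and 50 in CRC. Sham replicate 1 stood well above the other sham libraries, the injury libraries were close together, and the CRC libraries were high. In CPM the inhibitor measured 65.6 ± 43.2 in sham (SD, n = 3), 85.2 ± 9.22 in injury and 149 ± 42.3 in CRC. Between injury and sham the log2 fold change was 0.35 (standard error 0.40), given here without a test.

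Timp3 rose in CRC against sham by a log2 fold change of 1.15 (standard error 0.37, edgeR adjusted p = 0.0268). It was thus 1 of the 2 genes called in this comparison, in which 20.0% of all tested features were called. The groups overlapped by 1 library, as sham replicate 1 at 114 CPM was above CRC replicate 2 at 104 CPM. Against injury the log2 fold change was 0.80 (standard error 0.36, edgeR adjusted p = 0.164), so 0 of the 2 genes were called where 12.9% of all tested features were. All 3 CRC libraries were above all 3 injury libraries, which was so, in one direction or the other, for 33.5% of tested features. In tissue libraries such as these, a change in the number of cells of a type and a change in RNA per cell cannot be told apart.

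The call on Timp3 rested on few counts. It passed the threshold in 7 of 14 alternatives, among them each other scaling of the libraries, and its adjusted p over all of them lay between 0.000933 and 0.683. It was lost with DESeq2's Wald test (adjusted p = 0.0992) and with only the CRC and sham libraries in the edgeR fit (adjusted p = 0.0588). It was also lost without sham replicate 2 (log2 fold change 0.79, edgeR adjusted p = 0.115), sham replicate 3 (1.00, 0.102), CRC replicate 1 (0.96, 0.144) or CRC replicate 3 (1.14, 0.0827). Without sham replicate 1 it was 1.80 (edgeR adjusted p = 0.000933), and with sham replicate 1 as the only sham library 0.33 (edgeR adjusted p = 0.683).

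**Figure D2:**
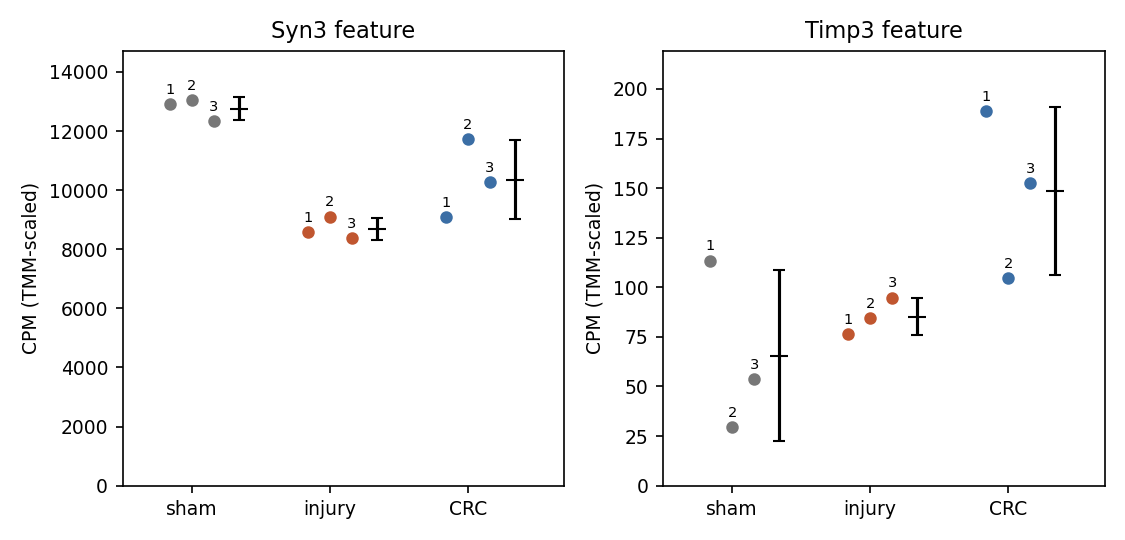
Level of the Syn3 and Timp3 features in each library, in TMM-scaled CPM on linear axes that start at 0. Points are single mice with their replicate number, and the black bars give the mean and SD of the 3 mice. Syn3 lies between 12333 and 13040 CPM in sham and between 8376 and 9100 CPM in injury, and Timp3 lies between 29.6 and 189 CPM in all 9 libraries.

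The share of Timp3 in the summed counts of the pair does not depend on the library scaling. It was 0.872% (95% Wilson interval 0.627% to 1.21%) in sham replicate 1, 0.227% (0.115% to 0.446%) in sham replicate 2 and 0.433% (0.263% to 0.713%) in sham replicate 3. In injury it was 0.882%, 0.919% and 1.12%. In CRC it was 2.04%, 0.884% and 1.46%, with an interval of 1.59% to 2.60% in CRC replicate 1. The share averaged 0.510 ± 0.329% in sham (SD, n = 3), 0.973 ± 0.127% in injury and 1.46 ± 0.577% in CRC. Every injury and CRC library was above every sham library, though CRC replicate 2 and all 3 injury libraries lay within the interval of sham replicate 1. The share divides by Syn3, which was chosen as higher in sham than in injury, so this order of both groups against sham was favoured by that choice. In CPM of Timp3 alone, CRC replicate 2 was below sham replicate 1. The intervals cover counting error only, since PCR copies were not told apart.

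Of the other inhibitors, Timp4, which lies within Syn2, gave counts of 32, 22 and 13 in sham, of 19, 17 and 22 in injury and of 34, 47 and 53 in CRC. Its CRC libraries were all above its injury libraries, with a log2 fold change of 1.01 (standard error 0.35, edgeR adjusted p = 0.0509) that missed the threshold. Against sham the log2 fold change of Timp4 was 0.81 (edgeR adjusted p = 0.0899). Timp1, the soluble inhibitor nested in Syn1, had 0 counts in each of the 9 libraries. By counting error alone a 0 is compatible with as many as 3 counts, which are 9.14 to 11.1 CPM per library. A Timp1 signal below that was not detectable with this number of counts on features. Records that fell in no feature are outside this limit. Timp2, which also takes part in the activation of pro-MMP2, had 1, 0 and 2 counts in CRC and 0 in the other libraries. Of the 4 TIMP genes 2 were thus tested, and 1, Timp3, was called in CRC against sham, beside 20.0% of all tested features.

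The proteinases that TIMP3 can inhibit were mostly near 0 on their own features. Of 17 MMP genes, 9 had 0 counts in all libraries and 2 were tested. Mmp19, a secreted enzyme that cleaves basement membrane proteins, had the most, with counts of 131, 189 and 177 in sham, of 104, 102 and 104 in injury and of 172, 146 and 137 in CRC. All of its injury libraries were below all others in CPM, whereas for Syn3 CRC replicate 1 was below injury replicate 2. For Mmp19 neither CRC against sham (log2 fold change -0.33, edgeR adjusted p = 0.233) nor CRC against injury (0.36, 0.267) passed the threshold. Mmp24, a membrane-bound MMP, had log2 fold changes of -0.16 and -0.21 in these comparisons (edgeR adjusted p = 0.685 and 0.661). Among the MMP genes with no test were Mmp2 with 3 counts, Mmp14 with 31 and Mmp9 with 0.

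Of 18 ADAM and ADAMTS genes 5 were tested. Adam17, the sheddase that releases TNF and ligands of the EGF receptor, gave counts of 27, 24 and 15 in sham, of 38, 23 and 23 in injury and of 58, 46 and 65 in CRC. All of its CRC libraries were above all others, and it rose against sham by a log2 fold change of 1.16 (standard error 0.32, edgeR adjusted p = 0.00976). Against injury it was 0.81 (edgeR adjusted p = 0.0908). The Adam17 call was lost without sham replicate 3 (edgeR adjusted p = 0.0664), without CRC replicate 3 (0.0623) and with sham replicate 1 alone (0.147).

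The ADAMTS enzymes cut aggrecan, versican and related proteoglycans. Adamts4 gave counts of 17, 14 and 21 in sham, of 13, 6 and 12 in injury and of 8, 4 and 0 in CRC, and fell in CRC against sham by a log2 fold change of -2.27 (standard error 0.66, edgeR adjusted p = 0.0131). Without CRC replicate 3, the library with 0, it was -1.70 and not called (edgeR adjusted p = 0.0696). Adamts9 gave counts of 3, 0 and 2 in sham, of 3, 2 and 6 in injury and of 13, 11 and 13 in CRC, and rose against sham by 2.62 (standard error 0.89, edgeR adjusted p = 0.0359). It passed the filter on low counts through its 3 CRC libraries alone, so the filter itself favoured a rise in CRC. Without the filter the log2 fold change was 2.64 and, adjusted over 16905 features, not called (edgeR adjusted p = 0.0976). Adamts4 in turn reached the level of the filter in 3 sham, 2 injury and 0 CRC libraries, and would not have passed without sham. The Adamts9 call was lost in 8 of 14 alternatives, among them leaving out sham replicate 2, sham replicate 3 or any 1 CRC replicate, with adjusted p-values from 0.0171 to 0.304 over all of them, the highest with sham replicate 1 alone. Adamts5 and Adam15 had log2 fold changes of 0.39 and -0.05 against sham (edgeR adjusted p = 0.659 and 0.969).

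Over the TIMP, MMP, ADAM and ADAMTS lists, 9 of 39 genes were tested, and 3 were called higher in CRC than in sham (Timp3, Adam17 and Adamts9) and 1 lower (Adamts4). Among all tested features 8.03% were called higher and 12.0% lower. Adamts9 passed the filter only through CRC, and Adamts4 only with sham. Whether the list as a whole shifted in either direction was not tested. Between CRC and injury 0 of the 9 were called by edgeR and 0 by DESeq2, while 4 had an unadjusted edgeR p under 0.05 (Adam17, Adamts4, Timp3 and Timp4). Of all tested features 12.9% were called by edgeR in that comparison and 24.7% had such a p. Between injury and sham, where Timp3 was not tested, 0 of the other 8 were called by either tool, and 1, Mmp19, had an unadjusted edgeR p under 0.05, as had 12.6% of all tested features. The call count in CRC against sham was 2 by DESeq2, where 566 of 16905 features were called. Without CRC replicate 3 it was 0, where 540 of 4068 features were called.

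**Figure D3:**
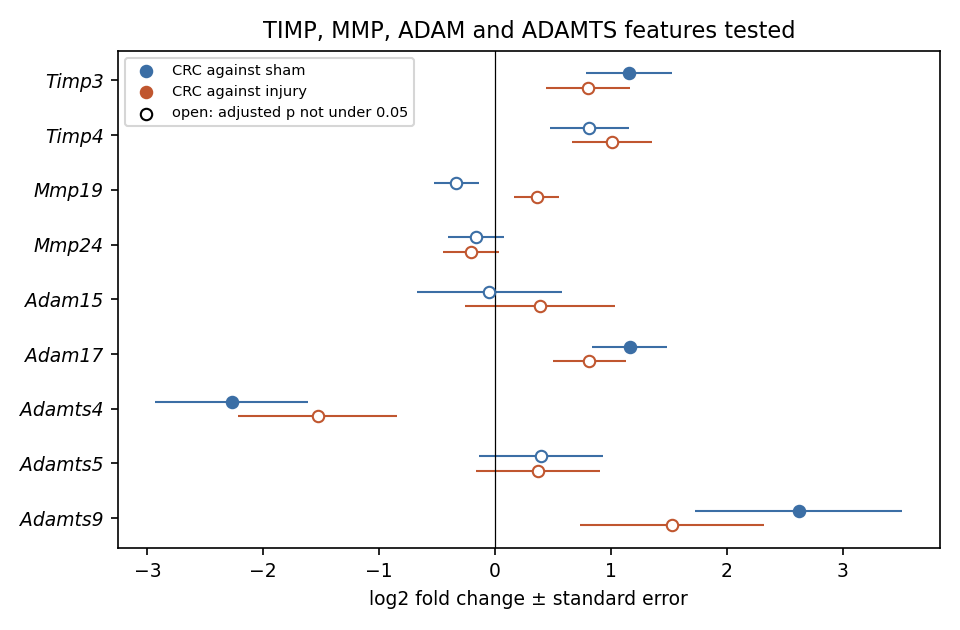
Log2 fold change with standard error of the 9 tested TIMP, MMP, ADAM and ADAMTS features in CRC against sham (blue) and CRC against injury (orange), n = 3 mice per group. Filled points passed an edgeR adjusted p of 0.05 and open points did not. Timp3, Adam17 and Adamts9 lie to the right and Adamts4 to the left in CRC against sham.

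Features that face a listed proteinase were read in the same way, since some held more counts than the gene itself. 4731419I09Rik, opposite Adam15, held 1839 counts where Adam15 held 77. It measured 882 ± 65.6 CPM in sham (SD, n = 3), 689 ± 95.1 in injury and 502 ± 37.4 in CRC, without overlap between CRC and either group. It fell against sham by a log2 fold change of -0.81 (edgeR adjusted p = 0.000605). 1700020L24Rik, opposite the secreted proteinase Mmp28, fell in CRC against sham by -1.80 (edgeR adjusted p = 0.0154) and against injury by -1.76 (edgeR adjusted p = 0.0258), calls kept in 9 of 14 and 6 of 13 alternatives. Its sham and CRC libraries overlapped, as sham replicate 1 at 35.7 CPM was below CRC replicate 1 at 36.5 CPM, and with sham replicate 1 alone the log2 fold change was -0.85 (edgeR adjusted p = 0.526). The call against sham was also lost without sham replicate 2, CRC replicate 2 or CRC replicate 3, and by DESeq2. A730049H05Rik, opposite Adamts9, measured 527 ± 76.3 CPM in sham, 700 ± 44.9 in injury and 458 ± 77.7 in CRC. It fell against injury by -0.61 (edgeR adjusted p = 0.0189, kept in 10 of 14 alternatives) and was at -0.20 against sham (edgeR adjusted p = 0.462). Gm15737, also opposite Adamts9, Tmem198b opposite Mmp19, Gm16033 opposite Adam19 and Tbc1d2b opposite Adamts7 were tested and not called, with log2 fold changes against sham of -0.34, -0.47, -0.83 and 1.25. Tbc1d2b reached the level of the filter in 0 sham, 1 injury and 3 CRC libraries, so the filter favoured its rise.

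Partners of TIMP3, and substrates of the proteinases it inhibits, were too low to test. The 4 genes whose proteins bind TIMP3 or act with it, among them the VEGF receptor gene Kdr, held 24 counts in all libraries together. The 12 genes of substrates, among them Vcan, Tnf and Hbegf, held 37, and Tnf had 0. Apol7d, which faces the fibronectin gene Fn1, was the only feature opposite a substrate gene to be tested, at a log2 fold change of -0.68 against sham (edgeR adjusted p = 0.268).

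Synapsins and neuronal genes did not share the level of Syn3. Syn1, the synapsin of most nerve terminals, gave counts of 15, 38 and 24 in sham, of 20, 19 and 20 in injury and of 29, 34 and 36 in CRC. Per kb of exon its mean was 7.91 counts per library, against 258 for Syn3. The sham libraries of Syn1 spanned those of the other groups, and its log2 fold changes in CRC were 0.15 against sham and 0.55 against injury (edgeR adjusted p = 0.818 and 0.385). Syn2 had 0 counts in all 9 libraries.

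Of 15 genes of neurons and synapses, Syn3 not among them, 9 had 0 counts in all libraries, including Snap25, Syt1, Tubb3 and Elavl4. Their summed counts were 42, 68 and 47 for sham, 36, 43 and 47 for injury and 58, 54 and 62 for CRC, of which Syn1 gave the most. In CPM the list summed to 185 ± 59.6 in sham (SD, n = 3), 147 ± 20.3 in injury and 177 ± 11.6 in CRC, with overlap between sham and each other group. Syp, a membrane protein of synaptic vesicles, was the other gene tested, with a log2 fold change of -0.26 in CRC against sham and 0.98 against injury (edgeR adjusted p = 0.753 and 0.248). Gm10558, which faces Map2, was at 1.23 against sham (edgeR adjusted p = 0.284). It reached the level of the filter in 0 sham, 1 injury and 2 CRC libraries, which favoured a rise against sham. The 5 glial markers held 77 counts, and Sox10, the most abundant, gave 37 of them.

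Markers of the uterine cell types were checked against the tissue label. Of 9 epithelial genes, 2 (Cdh1 and Foxa2) had 0 counts and 0 were tested, and the list summed to 13, 9 and 3 counts for sham, 2, 6 and 5 for injury and 11, 6 and 3 for CRC, and Muc1, the most abundant, gave 27 of all 58. Epithelium, the cell type transplanted, could therefore hardly be read from its own features. All 8 stromal genes had counts, with sums of 46, 53 and 89 for sham, 37, 47 and 38 for injury and 42, 31 and 42 for CRC. The collagen genes Col1a1 and Col3a1 fell in CRC against sham by log2 fold changes of -2.74 and -1.93 (edgeR adjusted p = 0.00323 and 0.0219, calls kept in 11 and 7 of 13 alternatives), while Hoxa11, the most abundant, was at -0.15 (edgeR adjusted p = 0.889). Both collagen genes reached the level of the filter in 2 sham, 1 injury and 0 CRC libraries, so the filter favoured a fall in CRC. The other stromal genes were too low to test and went both ways. Means were higher in CRC than in sham for Hoxa10 (20.4 ± 6.47 against 4.32 ± 7.49 CPM, SD, n = 3) and Pdgfra (8.16 ± 7.07 against 3.58 ± 6.19 CPM). They were lower in CRC for Vim (10.2 ± 4.73 against 25.4 ± 15.8 CPM), Dcn (0 against 4.77 CPM) and Lum (0 against 2.38 CPM). Hoxa11os, opposite Hoxa11, held 6450 counts and was at -0.05 against sham (edgeR adjusted p = 0.869) and 0.42 against injury (edgeR adjusted p = 0.0628).

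Smooth muscle markers summed to 123, 151 and 137 counts for sham, 84, 95 and 90 for injury and 79, 76 and 102 for CRC, with none of the 8 genes at 0. The sum was higher in every sham library than in any other, and Myh11 gave 459 of its 937 counts. Single genes differed, as Cnn1 measured 11.9 ± 9.13 CPM in sham (SD, n = 3), 22.2 ± 14.2 in injury and 23.5 ± 13.9 in CRC. Myh11, the smooth muscle myosin and the most abundant of them, fell in CRC against sham by a log2 fold change of -1.25 (edgeR adjusted p = 0.00299), and Tagln was at -1.13 (edgeR adjusted p = 0.0528) and Lmod1 at 0.13 (edgeR adjusted p = 0.872). Gm48529, opposite Tagln, measured 66987 ± 2596 CPM in sham (SD, n = 3), 52965 ± 578 in injury and 27575 ± 884 in CRC. It was thus lowest in CRC, whereas Syn3 was lowest in injury. Pcsk7, also opposite Tagln, and Gm11946, opposite Smtn, fell in CRC against sham by -1.32 and -0.88 (edgeR adjusted p = 0.0179 and 0.000207), calls kept in 7 of 14 and in all 15 alternatives. The part of muscle or stromal cells in the Syn3 and Timp3 values was not tested.

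Among leukocyte genes Csf1r, the receptor of macrophage colony-stimulating factor, gave 496 of 498 counts, and Ptprc, Adgre1, Lyz2 and Cd3e had 0. The list summed to 66, 63 and 79 counts for sham, 63, 49 and 62 for injury and 45, 36 and 35 for CRC, and Csf1r fell in CRC against sham by -1.04 (edgeR adjusted p = 0.00431). Csf1r also faces another gene, Hmgxb3, over 873 exonic bases, and Hmgxb3 held 14 counts. Genes of endothelium, mesothelium and fat held 128, 31 and 59 counts over all libraries, and 0 of them were tested. Emcn, Lrrn4 and Lep were the most abundant of these lists. The endothelial list summed to 48.8 ± 27.9 CPM in sham (SD, n = 3), 40.9 ± 10.9 in injury and 51.0 ± 17.7 in CRC. Emcn measured 9.44 ± 2.56 CPM in sham (SD, n = 3), 14.0 ± 0.0996 in injury and 28.6 ± 9.98 in CRC, from 2 to 13 counts per library. Flt1 also had a higher mean in CRC than in sham (14.3 against 12.7 CPM). Pecam1 (6.14 against 16.9 CPM), Kdr, Tek and Cdh5 had lower means in CRC than in sham. The fat list summed to 11.5 ± 7.20 CPM in sham, 52.6 ± 36.7 in injury and 4.10 ± 7.10 in CRC, and its injury counts, 9, 27 and 9, were all from Lep.

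Around the pair few genes held counts. Of 34 other annotated genes that lie in Syn3, overlap it or start within 200 kb, 26 had 0 counts and 3 were tested. Gm15990, a feature on the plus strand inside Syn3 from 86125827 to 86129854, gave counts of 4, 0 and 4 in sham, of 14, 8 and 6 in injury and of 14, 9 and 17 in CRC. It lies on the same strand as Timp3 and rose in CRC against sham by 2.09 (standard error 0.76, edgeR adjusted p = 0.0494), a call kept in 4 of 13 alternatives. It reached the level of the filter in 0 sham, 1 injury and 2 CRC libraries, which also favoured a rise against sham. Fbxo7, which encodes a subunit of a ubiquitin ligase and lies beside Syn3, gave counts of 25, 7 and 13 in sham, of 12, 17 and 23 in injury and of 38, 42 and 41 in CRC. As with Timp3, sham replicate 1 was the highest sham library, and Fbxo7 rose against sham by 1.24 (standard error 0.39, edgeR adjusted p = 0.0205). This call was kept in 8 of 14 alternatives, over which the log2 fold change ran from 0.55 to 1.73.

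The most abundant neighbour was 1810014B01Rik, which faces Hsp90b1, the gene of a chaperone of the endoplasmic reticulum. It gave counts of 616, 786 and 610 in sham, of 472, 400 and 518 in injury and of 171, 236 and 239 in CRC. Its CRC libraries were below all others, and it fell against sham by -1.84 (standard error 0.17, edgeR adjusted p = 2.34e-09) and against injury by -1.30 (edgeR adjusted p = 1.82e-06). These calls held in each alternative. Its lowest group was thus CRC, not injury as for Syn3.

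The features most like Syn3 were sought among 492 tested features averaging at least 100 counts per library, by Pearson's r of log2 CPM over the 9 libraries. The libraries share their group differences and scaling, so r is a description only. Tsc2, which encodes an inhibitor of mTOR signalling and faces Pkd1, was closest (r = 0.895), followed by Gm9747 opposite the insulin receptor substrate gene Irs1 (r = 0.879). Tsc2 measured 607 ± 57.1 CPM in sham (SD, n = 3), 348 ± 46.1 in injury and 439 ± 4.86 in CRC, the same order of groups as Syn3. Gm9747 measured 7563 ± 498, 5905 ± 424 and 7298 ± 895 CPM in these groups, with CRC near sham. Zfp865 (r = 0.795), Gm44560 opposite the ubiquitin ligase gene Ube3a (r = 0.793) and Chpf2, a gene of chondroitin synthesis (r = 0.740), came next. The last 2 of these had their lowest mean in CRC.

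The features least like Syn3 were Txlng (r = -0.890), Cep85 (r = -0.824) and Slc26a10 (r = -0.810), whose means were highest in injury. Cep85, a gene of the centrosome, measured 333 ± 23.7 CPM in sham (SD, n = 3), 1483 ± 119 in injury and 659 ± 164 in CRC. Of these 8 features, Cep85 was the one with no exon on the other strand. With a mean of at least 50 counts as the limit, 939 features were compared, and Cenpo (r = 0.864) and Rasa2 (r = 0.833) entered the closest 5.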

How the data were processed

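The authors deposited, for each library, a read count for each of 55228 features, not normalized, and 5 closing rows of records that were not counted. The submitters' processing notes name HISAT2 2.1.0 and StringTie 2.1.1, and the labels name a kit that depletes ribosomal RNA. The files are named for HTSeq, whose version and strand setting are not given in the sources used here. Records in no feature were 87.3% to 91.6% of each library. The 5 rows were left out of library sizes and tests.

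Groups and replicate numbers came from the sample labels. Positions and exon overlaps were read from GENCODE M21, while the study names a different GENCODE release with its clustering, and features were matched to it by name. The tests were run with the packages edgeR 4.0.16, DESeq2 1.42.0 and limma 3.58.1 of R 4.3.3, and the other steps with pandas 2.3.3, numpy 2.4.6, scipy 1.17.1 and matplotlib 3.10.9 of Python 3.11.15. The filter filterByExpr, which asks for about 10 counts at the median depth in at least 3 libraries, left 3722 features. Library sizes were scaled by TMM, and 1 robust quasi-likelihood model of edgeR, with the group as its only term, was fitted to all 9 libraries. The script was tested on simulated data. P-values were adjusted by Benjamini-Hochberg, and standard errors were the absolute log2 fold change divided by the square root of the F statistic. One count was worth 3.05 to 3.70 CPM. Libraries of a group differed by more than sampling noise (chi-square per degree of freedom 2.20 to 11.9). For likeness to Syn3 a prior count of 2 was added before CPM were put on the log2 scale.

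The members and gene lists were chosen with earlier results of these data known. Named were Syn3 and Timp3, all TIMP and synapsin genes, genes of the other lists that passed the filter or face a feature that did, genes within 200 kb of Syn3, and the 5 features most and 3 least like Syn3. Genes named from the lists without a test were chosen after their values were seen. For 1 list the result is not reported here. Alternatives were other scalings, DESeq2, other filters, fits of 2 groups, a replicate block, Syn3 and Timp3 summed, and each replicate left out.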

Additional observations from a re-analysis of the deposited data

How the results depend on the processing

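With 1 replicate left out, the log2 fold change of Syn3 in CRC lay between -0.39 and -0.20 against sham and between 0.15 and 0.34 against injury, and its injury against sham value between -0.58 and -0.53. Syn3 and Timp3 summed gave -0.29, 0.26 and -0.55. With library sizes from all records the value against injury was 0.45, past the threshold, in a direction that the choice of the gene favoured.

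For Timp3 the range with 1 replicate left out was 0.79 to 1.80 in CRC against sham, 0.59 to 1.00 in CRC against injury and 0.0083 to 1.03 in injury against sham. DESeq2's Wald test gave 1.17 against sham and a fit of only these groups 1.14, both short of the threshold, while the fit of only CRC and injury gave 0.80, past it (edgeR adjusted p = 0.0411, from 0.0411 to 0.493 over the alternatives). With sham replicate 1 as the only sham library, chosen after seeing the data, Timp3 was at 0.33 in CRC and, with its sign changed, at -0.43 in injury. The lone library was assumed to vary like the other groups. A minimum of 10 counts in every library left Timp3 without a value. The causes were not tested.

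Of the TIMP, MMP, ADAM and ADAMTS genes, 4 were called in CRC against sham, 0 to 6 with 1 replicate left out, 2 by DESeq2 or with at least 10 counts in every library, and 1 with sham replicate 1 alone. Over all features, the main fit called 746 of 3722 in CRC against sham, and 505 to 894 were called with 1 replicate left out. DESeq2 called 566 of 16905, and the setting with at least 10 counts in every library called 555 of 2039. Of the 4 listed genes called, Adamts9 passed the filter on low counts only through CRC. Against injury 0 were called, but 2 with library sizes from all records, 2 with at least 10 counts in every library and 3 with only the 2 groups fitted. Over all features, the main fit called 481 of 3722 in that comparison. These 3 settings called 523 of 3722, 365 of 2039 and 708 of 3402 features, in the same order. In injury against sham, with Timp3 not counted, 0 were called and 0 to 1 with 1 replicate left out.

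Replicates of the same number did not deviate together (r from -0.096 to 0.080). With the replicate block, Syn3 was at -0.31 against sham, 0.25 against injury and -0.56 in injury against sham, Timp3 at 1.21, 0.75 and 0.47, and the counts of called listed genes were 4, 0 and 0. Calls over all features in injury against sham were 5 with the block against 16 without it, 6 with only these groups fitted and 3 to 154 with 1 replicate left out. In CRC against injury, 708 features were called with only these groups fitted, against 481. With library sizes from all records 643 features were called higher and 281 lower in CRC against sham (299 and 447 with TMM), 334 and 189 in CRC against injury (190 and 291), and 14 and 3 in injury against sham (10 and 6).

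For the other named features, 1623 of 1746 values under an alternative stayed on the same side of the threshold, 87 lost a call, 36 gained one and 0 reversed a call. The order of likeness to Syn3 was the same with a prior count of 0.5. The number of counts on the feature limits Timp3, with 8 to 62 per library, more than Syn3, with 2387 to 3981.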
